A study of Bos taurus with 42 samples.

Results

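The data were RNA-Seq read counts of the fetal liver of cattle at day 50 of gestation, set against the cerebrum and the hind limb muscle of the same fetuses. The liver made up 14 of the 42 libraries, chosen by its tissue label, and each of the 14 fetuses also gave 1 cerebrum and 1 muscle library. The fetuses were carried by Angus-cross heifers bred to a common sire. In the control group (CON, *n* = 7, 6 males and 1 female) the dams were fed 100% of the energy requirement, and in the restricted group (RES, *n* = 7, 5 males and 2 females) they received 60% of the CON intake. The question addressed here was which genes and functions were high or low in the day 50 liver, over both diets. Each fetus is a separate animal and is named below by its animal number.

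The fetal liver has a pair of roles at this stage that the adult organ does not share in the same way. Its hepatoblasts and young hepatocytes secrete the carrier and clotting proteins of the fetal plasma and begin to run the pathways that handle amino acids, lipids and foreign compounds. Between them sit islands of developing blood cells, because the liver takes over blood formation from the yolk sac and later hands it on to the bone marrow, and resident macrophages and sinusoid endothelium serve those islands.

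The liver libraries held 6,658,218 (fetus 69) to 12,741,299 counts (fetus 1), with a median of 8,130,072.5, and all 42 libraries held between 4,145,093 and 12,741,299. A count of 3, taken as the least that can be read as detection, was worth 0.369 CPM (counts scaled to the library's total) in the median liver library. Over the 14 livers 20,060 genes had at least 1 count, against 21,055 over the cerebrum libraries and 21,074 over the muscle libraries. Levels below are log2 CPM with TMM scaling and a prior count of 1, on which a gene without any count sits at -2.77. A CPM value rises with transcript length, so levels are compared between tissues for a gene and not between genes.

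Several libraries stood apart. In the liver of fetus 1, 67.7% of the counts fell on the 12 mitochondrially encoded genes that have a symbol, and the livers of fetuses 2, 6 and 33 held 44.9%, 35.6% and 30.5%. The other 10 livers were lower, down to 4.04% in fetus 46, and the median was 11.03%. Cerebrum libraries lay between 2.73% and 14.7%, the latter again in fetus 1, and muscle libraries between 2.35% and 4.03%. The liver share exceeded the mean of the other tissues of its own fetus by 14.8 ± 17.9 percentage points (SD, *n* = 14), in 14 of 14 fetuses. An exact paired permutation test, two-sided, gave *p* = 0.000122, the smallest that sign flips of 14 fetuses can give. The difference was 11.4 points without fetus 1. It was 9.04 points in the 7 CON fetuses and 20.5 in the 7 RES fetuses, and an exact permutation of the diet labels, two-sided, gave *p* = 0.263 for the gap between the diets. Liver and cerebrum overlapped in this share, and in fetuses 46 and 70 the liver stood slightly below the cerebrum.

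**Figure D1:**
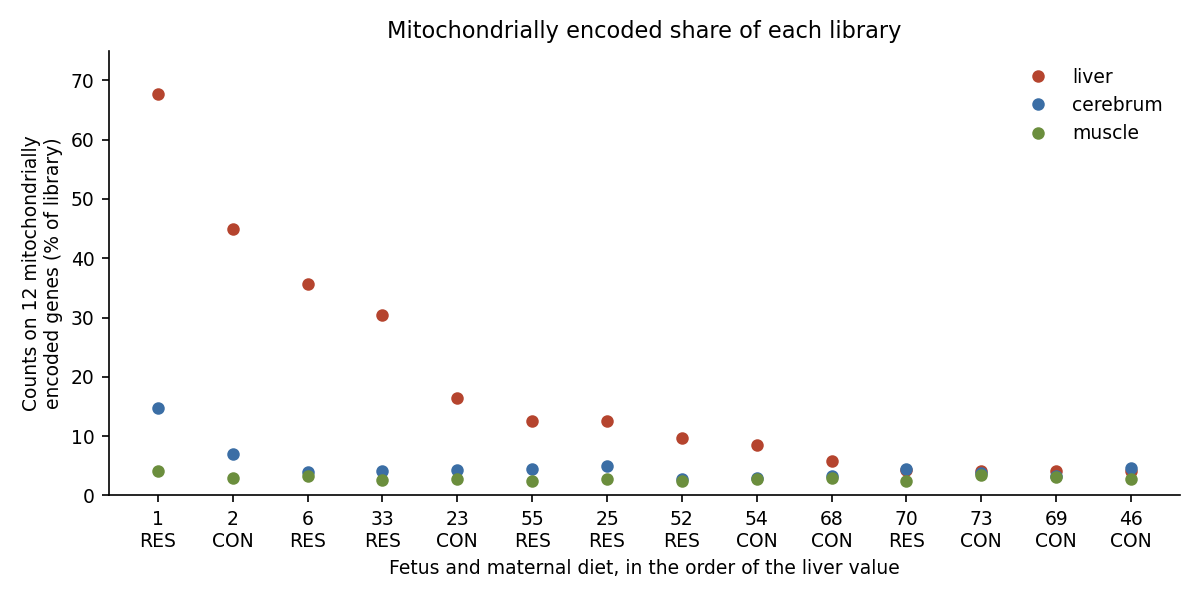
Percent of each library's counts on the 12 mitochondrially encoded genes with a symbol, coloured by tissue. Points are the 3 libraries of each of the 14 fetuses, which are ordered along the x axis by the liver value and labelled with number and diet. The liver of fetus 1 stands highest at 67.7%, and all muscle libraries lie at or under 4.03%.

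The cerebrum of fetus 1 carried 7,642 CPM of plasma protein transcripts outside the mitochondrial genes, against a cerebrum median of 252, and 90.6% of these were *TTR* (transthyretin). It also held 6,253 CPM of matrix transcripts, 88.3% of them *SPARC*, and the lowest neuron sum of any cerebrum (3,653 CPM). Its skeletal muscle transcripts summed to 445 CPM against a cerebrum median of 23.3, with *ACTC1* at 30.6% of them and no count of *PAX7*, and its macrophage transcripts to 80.1 CPM against 10.9. The cerebrum of fetus 23 had the lowest TMM factor of any cerebrum (0.746, median 1.38). Its top 10 genes took 13.4% of its counts, against a cerebrum median of 5.23%. Its sum of neural progenitor transcripts was the lowest of any cerebrum (63.7 CPM, median 197). The muscle of fetus 73 held 2,540 CPM of neuron transcripts against a muscle median of 218, and *STMN2* made up 50.5% of them. In the livers, the sums of neuron and skeletal muscle markers were low. The 13 neuron genes summed to 22.6 to 77.2 CPM, 74.4% of it the microtubule gene *MAP2*, and *GRIN1* and *NEUROD2* had no count in any liver. The 16 skeletal muscle genes summed to 15.0 to 65.5 CPM in the liver, 37.5% of it *TNNT3*, with no count of *MYOD1* or *PAX7*. The 9 genes of matrix, cartilage and limb mesenchyme summed to 166 to 513 CPM in the livers, with a median of 303, 83.5% of it *SPARC*, near the cerebrum median of 270 and under the muscle median of 6,621. The part that these libraries play in the results was not tested except by leaving them out, and their effect is given where it mattered.

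Across the transcriptome most genes differed between the liver and the other tissues, and a minority did so by over 2-fold against each of them. Of 22,664 genes with counts, 15,972 passed the filter on low counts. A gene at or near no counts in 2 tissues could pass only through the third, so its direction was set in part by the filter. That holds for the 28 higher genes without a count outside the liver. In edgeR's quasi-likelihood test of the liver against the mean of cerebrum and muscle, with the animal as a block, 13,656 genes differed (85.5% of those tested), 6,091 higher (38.1%) and 7,565 lower (47.4%), at a Benjamini-Hochberg adjusted *p* under 0.05. Because so many genes passed, a narrower rule was used for most of what follows. It required a difference of over 2-fold against the cerebrum and, separately, against the muscle, each at an adjusted *p* under 0.05 in edgeR's glmTreat. By that rule 5,968 genes differed (37.4%), 2,548 higher in the liver (16.0%) and 3,420 lower (21.4%), and these shares are the background for every list below. In 1,938 of the higher genes the lowest liver lay above the highest of the other 28 libraries, and in 1,760 of the lower genes the highest liver lay below the lowest of them. Over all genes tested such separation occurred for 13.6% upward and 12.3% downward.

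The order of the 2 directions depended on the size of the change. Against the mean of the other tissues 1,891 of the higher and 2,846 of the lower genes differed by at least 4-fold, 881 and 1,283 by at least 16-fold, and 516 and 400 by at least 64-fold. The fold of a gene with few or no liver counts is limited by the prior count. The genes higher than in each other tissue took up 55.2% of all liver counts outside the mitochondrial genes (50.0% to 59.3% over the 14 livers), against 6.38% on average in the cerebrum and 6.55% in muscle. A bulk library cannot tell fewer cells of a type from less RNA per cell, and this holds for every level given here.

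The median log2 fold change over all genes tested was -0.22 with TMM scaling and -1.29 with library totals alone. Of the genes called in the first test 44.6% were higher with TMM and 20.3% with library totals (2,856 higher and 11,188 lower). Changes below are on the TMM scale, and it is said where a list changes direction under library totals.

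**Figure D2:**
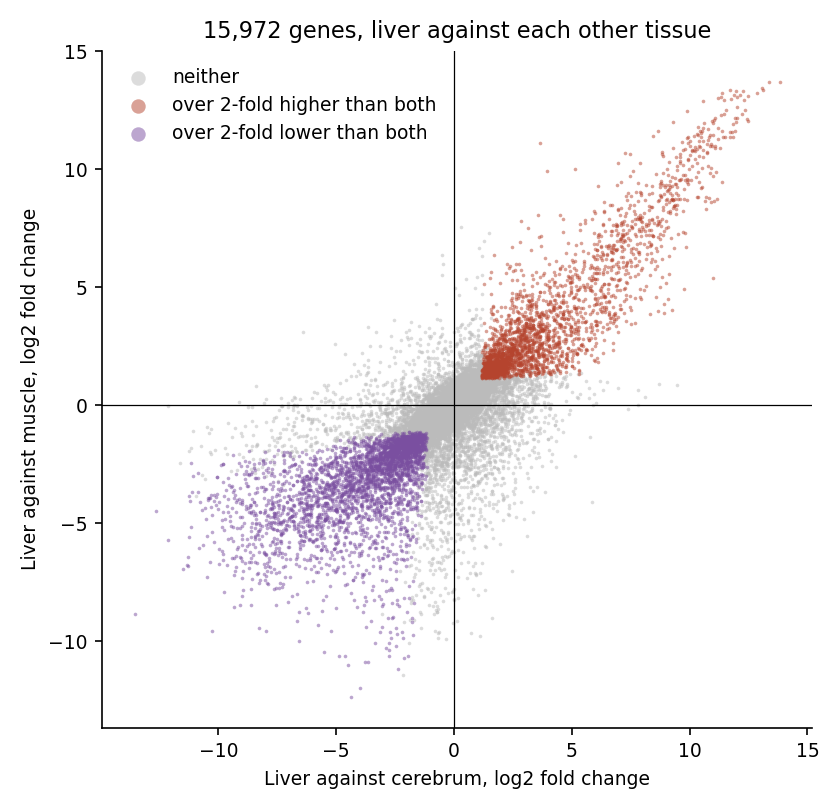
Log2 fold change of the liver against the cerebrum (x axis) and against muscle (y axis) for the 15,972 genes tested, each point a gene, with the genes called higher or lower than both marked by colour. The 2,548 higher genes fill the upper right corner and the 3,420 lower genes the lower left.

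Few genes lay between the tissues at this size. Only 148 genes were over 2-fold higher in the liver than in the cerebrum and over 2-fold lower than in muscle, and 35 had the reverse order. Against the cerebrum alone 3,807 genes were higher and 4,767 lower, and against muscle alone 3,083 and 4,679.

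The 4 genes taken as markers of the liver separated it from the other tissues without overlap. *APOB* (ENSBTAG00000008505), which encodes the structural protein of the lipoproteins that the liver secretes, ranged from 10.67 to 11.41 log2 CPM over the 14 livers, with a median of 11.04. Its highest value elsewhere was 2.14 in a cerebrum. The log2 fold change was 12.32 ± 0.39 (SE, adjusted *p* = 5.29e-24, edgeR). Here and below, the SE of a log2 fold change is its size divided by the square root of the test's F statistic. It was derived from the test and not fitted, and it is approximate for genes at or near no counts in a tissue. *FGA* (ENSBTAG00000001638), the fibrinogen alpha chain, lay between 10.88 and 12.23, median 11.33, and reached at most 1.87 in the cerebrum and 1.05 in muscle. This gave a log2 fold change of 12.65 ± 0.45 (SE, adjusted *p* = 8.47e-23). The blood formation marker *GATA1* (ENSBTAG00000003184), a transcription factor of red cell and platelet precursors, was measured at 8.25 to 9.97, median 8.67, with a log2 fold change of 10.68 ± 0.26 (SE, adjusted *p* = 4.46e-27). Its highest value in another tissue was 1.48, again in a cerebrum. *PFKFB1* (ENSBTAG00000000172), the liver form of the enzyme that sets the level of fructose 2,6-bisphosphate, varied most between livers, from 5.76 to 8.53 with a median of 6.81. No other library exceeded -0.47, and the log2 fold change was 9.84 ± 0.23 (SE, adjusted *p* = 1.48e-27). The hepatocyte markers and the blood formation marker were thus high in each of the 14 livers. The study had singled out PFKFB as liver-specific and *GATA1* as a highly connected liver regulator in these same libraries. Their separation here is therefore not independent evidence.

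**Figure D3:**
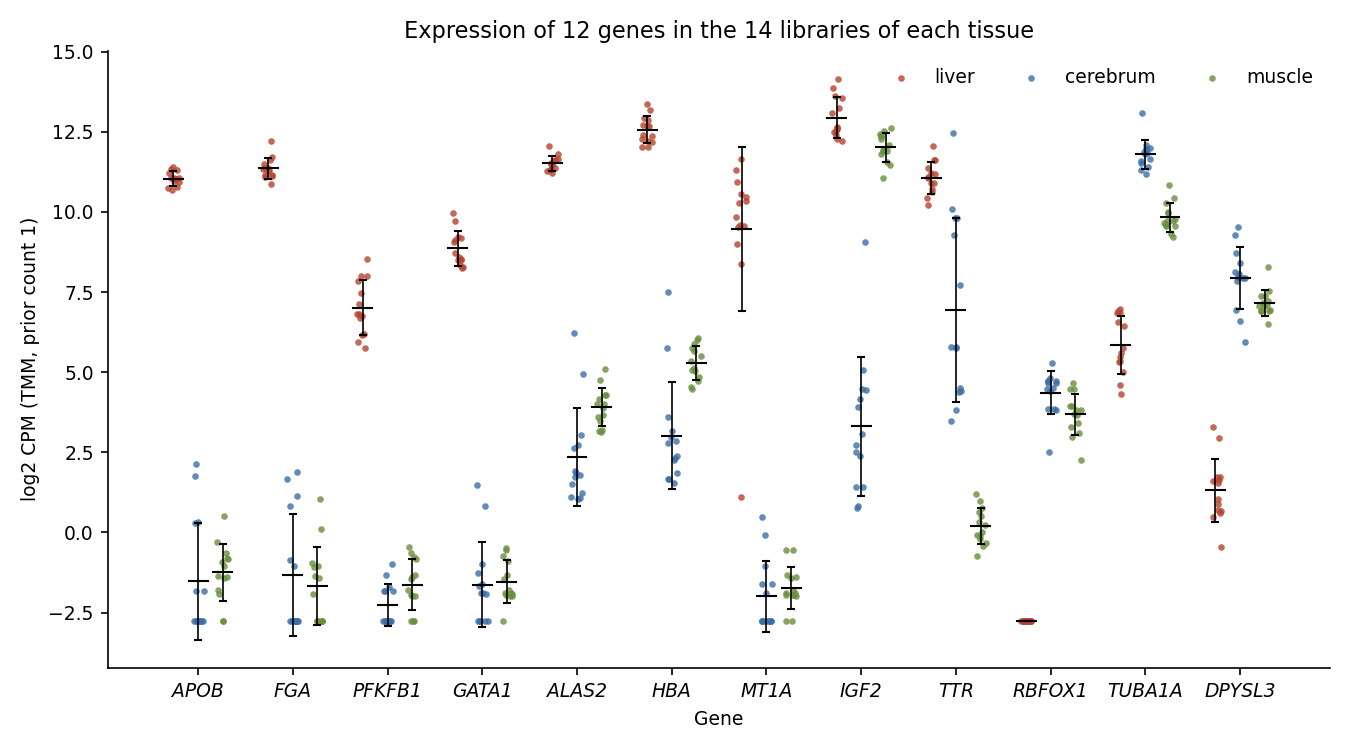
Log2 CPM (TMM, prior count 1) of 12 genes in the 14 libraries of each tissue, each point a library, with a bar at the mean and error bars of 1 SD. The livers lie above every other library for *APOB*, *FGA*, *GATA1* and *PFKFB1*.

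Names are known here for part of the genes only. The deposited rows carry Ensembl identifiers, and symbols were taken from the study's supplementary tables, which gave one to 5,131 genes, of which 5,105 were tested. Of these, 367 have a symbol solely through tables of tissue-specific genes, regulators or networks, which were chosen on these same libraries, and 64.9% of them were higher in the liver by the 2-fold rule. The 4,738 with a symbol in a table of diet results were close to the background, with 784 higher (16.5%) and 955 lower (20.2%). A list's count is therefore not independent evidence of its direction, and the count and the median among the members named through the diet tables are given beside it. Those tables are not wholly free of such choice. For the cerebrum, the study kept only co-expressed pairs that held a differentially expressed gene, a tissue-specific gene or a regulator. Tissue-specific genes such as *SLC17A6* of the neuron list could enter in that way. Of the 2,548 higher genes 1,022 had a symbol, and of the 3,420 lower genes 997.

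The plasma protein list had the largest median change of the lists described here. Of 32 listed carrier and transport proteins 27 had a symbol, and all 27 were higher in the liver than in each other tissue, 15 of 15 among those named through the diet tables. Their median log2 fold change was 12.12, and 12.53 over those 15, against -0.22 over all genes tested. In 26 of them no liver overlapped with any other library. The largest increase of any named gene was that of *SERPINA1*, the antitrypsin of plasma, which ranged from 15.37 to 17.73 log2 CPM in the livers with a median of 15.96. Its highest value was 6.21 in the cerebrum and 5.97 in muscle, and its log2 fold change was 13.76 ± 0.78 (SE, adjusted *p* = 3.96e-17, edgeR).

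*AFP*, the albumin of fetal life, measured 14.45 to 16.00 (median 15.54) in the livers and at most 6.56 elsewhere, a log2 fold change of 13.25 ± 0.76. *ALB*, the adult albumin, was already abundant at 13.22 to 15.25 (median 14.51), with a log2 fold change of 11.91 ± 0.42. The fetuin genes *AHSG* (13.24) and *FETUB* (13.05), which encode inhibitors of calcification and proteolysis, the lipoprotein component *APOA2* (13.54) and the adhesive protein *VTN* (12.81) were among the 12 named genes with the largest log2 fold changes. So were *ITIH3* (12.80), a hyaluronan-binding inhibitor chain, *SERPINA6* (12.64), the corticosteroid carrier, and *APOH* (12.53). *TTR*, a carrier of thyroid hormone and retinol that the choroid plexus also makes, was the exception without separation. It lay between 10.21 and 12.06 in the livers and between 3.48 and 12.46 in the cerebrum, where fetus 1 stood above every liver, but it did not pass 1.20 in muscle. It was higher in the liver than in the cerebrum by 3.65 and than in muscle by 11.10 on the log2 scale.

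*SERPINA1*, *AHSG* and *AFP* were also among the 10 genes with the most liver counts, a ranking that rises with transcript length. The other 7 comprised 6 mitochondrially encoded genes and ENSBTAG00000038748, which has no symbol here. That gene measured 15.62 to 17.03 in the livers and at most 11.89 elsewhere, a log2 fold change of 7.48. Summed over the plasma list, the livers held 108,997 CPM outside mitochondrial genes in fetus 2 to 269,932 in fetus 46, with a median of 215,452. *SERPINA1* made up 28.1% of that sum.

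Clotting factors followed the same pattern. All 20 coagulation and fibrinolysis genes with a symbol, of 24 listed, were higher than in each other tissue, 9 of 9 through the diet tables, and none overlapped. The median log2 fold change was 10.33 over the list and 10.35 over those 9. Beside *FGA*, the fibrinogen gamma chain *FGG* measured 9.70 to 11.09 (median 10.68), with at most 1.54 elsewhere and a log2 fold change of 12.52 ± 0.37. *PLG*, the precursor of the clot-dissolving enzyme plasmin, measured 8.94 to 11.05 (median 10.15), at most 0.61 elsewhere and a change of 12.64 ± 0.33. Kininogen (*KNG1*, 12.20), the factor XIII carrier subunit *F13B* (11.88) and the protease precursors *F11* (10.64), *F7* (10.35), *F10* (9.66) and *F9* (9.27) spanned the clotting cascade. *F5*, the cofactor of factor X, had the smallest change of the list at 6.26 ± 0.24, with livers between 4.48 and 5.86 and no other library above 0.65.

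Complement was divided. Of 11 genes with a symbol, 7 were higher than in each other tissue without overlap (2 of 6 through the diet tables). The median was 7.61 over the list and 2.31 over those 6. The central component *C3* ranged from 9.41 to 11.72 (median 9.98) in the livers and no higher than 4.06 in another tissue, a log2 fold change of 7.61 ± 0.17. The lectin pathway protease *MASP2* (11.06), the collectin *MBL1* (9.78) and the membrane attack components *C8A* (10.48), *C5* (9.75), *C8B* (7.64) and *C9* (6.90) were also higher. The partner protease *MASP1* was near its cerebrum level, with 6.65 to 7.56 in the livers, 5.91 to 7.73 in the cerebrum and 2.22 to 4.60 in muscle. *C4A* did not pass the first test (log2 fold change 0.14 ± 0.17, adjusted *p* = 0.44), and *C7*, a later member of the attack complex, was lower against the mean (-1.28 ± 0.48, adjusted *p* = 0.0141, edgeR), with livers and cerebra overlapping and muscle above both medians. That call was lost within either diet and without the 4 fetuses of over 25% mitochondrial counts in the liver. The livers of those 4 fetuses held the 4 highest values of *C3*, *C5*, *C8A*, *MASP1* and *MASP2*.

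The transcription factors that specify hepatocytes also separated the liver from the other tissues. All 13 with a symbol, of 23 listed, were higher than in each other tissue without overlap (5 of 5 through the diet tables), with a median of 7.56 over the list and over those 5. *HNF4A*, the nuclear receptor that governs hepatocyte differentiation, ranged from 4.11 to 6.37 (median 5.74) in the livers and had no count in any of the other 28 libraries. With 3 counts taken as the floor over each group of libraries, it was at least 1,656-fold higher than in the cerebrum and at least 2,033-fold higher than in muscle. *GATA4*, a factor of endoderm and heart, measured 4.59 to 5.93 and at most -1.38 elsewhere (log2 fold change 9.67 ± 0.24). The bile acid receptor *NR1H4* (9.47), the carbohydrate-responsive factor *MLXIPL* (8.64) and *FOXA3* (8.54) followed. *NR5A2* and *PPARA*, a nuclear receptor of fatty acid oxidation, were the members with the smallest differences, 2.84 ± 0.11 and 2.30 ± 0.16, since both had counts in the other tissues. *PPARA* measured 2.96 to 4.30 in the livers, 1.68 to 2.79 in muscle and -0.66 to 1.35 in the cerebrum, and its call against each tissue was lost in RES fetuses alone and with library totals (1.22).

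Enzymes of nitrogen and amino acid disposal were higher in the liver. All 5 urea cycle genes with a symbol were higher (1 of 1 through the diet tables, median 8.40 over the list and 4.19 for that gene). *CPS1*, the mitochondrial enzyme that commits ammonia to the cycle, ranged from 7.20 to 9.97 (median 9.04) with at most 0.45 elsewhere and a log2 fold change of 10.41 ± 0.22. *OTC*, the enzyme of the next step, was the most even of the set at 6.72 to 7.53, and changed by 11.47 ± 0.21. *ASS1*, which acts outside mitochondria and also in other tissues, measured 7.50 to 8.79 in the livers, 2.01 to 5.24 in the cerebrum and 2.76 to 5.19 in muscle (4.19 ± 0.16).

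For amino acid breakdown all 18 members with a symbol were higher without overlap (4 of 4 through the diet tables), with a median of 9.69 over the list and 5.39 over those 4. The tyrosine pathway was represented from end to end. *TAT*, its first enzyme, changed by 5.45 ± 0.19, *HPD* by 12.38 ± 0.26, *HGD* by 9.44 ± 0.20, *GSTZ1* by 3.93 ± 0.13 and *FAH*, the last, by 5.34. *TAT* measured 4.40 to 5.59 in the livers and at most 1.20 elsewhere. Histidine (*HAL*, 11.43, and *FTCD*, 12.51), glyoxylate (*AGXT*, 12.05), betaine (*BHMT*, 11.77) and tryptophan breakdown (*TDO2*, 10.50, *KMO*, 7.16, *KYNU*, 7.67, and *HAAO*, 9.95) showed the same direction. *HAAO* was also 1 of the 8 named genes of smallest spread between livers that the naming rule picked, at 7.40 to 7.97.

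Sugar metabolism showed the liver forms of enzymes and carriers that exist in several forms. Of 6 liver genes with a symbol 5 were higher than in each other tissue (2 of 3 through the diet tables, median 7.48 over the list and 1.84 over those 3). Beside *PFKFB1*, the liver glycogen synthase *GYS2* changed by 9.74, and the glucose carrier *SLC2A2* by 7.89 ± 0.31 with a wide range over livers, 1.52 to 4.67. The glucose 6-phosphate carrier *SLC37A4* was close to the other tissues, with 4.87 to 6.89 against 4.94 to 5.78 in the cerebrum and a log2 fold change of 0.42 ± 0.11, which turned to -0.72 with library totals. It did not pass in CON fetuses alone (0.22) or without the 4 fetuses of over 25% mitochondrial counts in the liver (0.18), whose livers held its 4 highest values.

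Of 8 muscle and brain forms, all of them named through the diet tables (median -0.31, with 3 lower than in each other tissue under library totals), *ENO2*, the neuronal enolase, was lower than in each other tissue (-5.61), and *PGAM2*, the muscle phosphoglycerate mutase, was lower against the mean (-4.84). *SLC2A4*, the insulin-responsive glucose carrier known from adult muscle and fat, went the other way. It measured 4.15 to 5.37 in the livers, 0.99 to 2.64 in muscle and at most 1.77 in the cerebrum, without overlap, a log2 fold change of 4.34 ± 0.22 (adjusted *p* = 2.9e-18, edgeR).

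Among 15 fatty acid and ketone genes 9 were higher than in each other tissue (3 of 9 through the diet tables, median 2.86 over the list and 1.15 over those 9). *FABP1*, the liver fatty acid binding protein, ranged from 9.02 to 10.19 (median 9.57) and changed by 11.99 ± 0.31. The hepatic lipase *LIPC* (11.55) was higher too. Mitochondrial oxidation enzymes differed less, with *ACADVL* at 2.86 and *CPT2* at 2.11, which both lost their calls against each tissue with library totals (1.74 and 1.09), and *CPT1A* (1.78) passed the first test alone. *ACACA*, the rate-limiting enzyme of fatty acid synthesis, was lower against the mean by a small amount (-0.47 ± 0.13, adjusted *p* = 0.00137, edgeR), as was *ELOVL6* (-0.55 ± 0.14, adjusted *p* = 0.000368), a fatty acid elongase. The livers overlapped with both other tissues for each, and the call of *ELOVL6* was lost in CON fetuses alone (-0.36).

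Bile acid and sterol genes were higher in 8 of 9 cases (3 of 4 through the diet tables, median 9.11 over the list and 6.39 over those 4). The sterol 12-alpha-hydroxylase *CYP8B1* and the bile acid importer *SLC10A1* had no count outside the liver. *SLC10A1* was at least 398-fold higher than in the cerebrum and at least 489-fold higher than in muscle. *SOAT2*, which esterifies cholesterol for lipoproteins, measured 6.41 to 7.72 and changed by 9.59 ± 0.18. *CYP27A1*, a mitochondrial sterol hydroxylase, did not pass the first test (0.18 ± 0.23, adjusted *p* = 0.451), as muscle stood above the liver, with 4.43 to 5.10 against 2.85 to 4.22.

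All 12 genes of foreign compound metabolism with a symbol were higher than in each other tissue (3 of 3 through the diet tables, median 9.26 over the list and 3.95 over those 3). *AADAC*, an esterase of the endoplasmic reticulum, and *GLYAT*, which joins glycine to acyl groups, had no count in the other tissues. *EPHX1*, an epoxide hydrolase used by many tissues, changed by 3.95 ± 0.16, from 4.03 to 5.07 in muscle to 7.50 to 8.60 in the liver. *CYP4A11*, *UGT1A1*, *GSTA1* and *GSTA2* belong to families with near-identical copies, and how their reads were divided is uncertain.

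Genes of red cell formation were high in each liver. All 4 erythroid transcription factors with a symbol were higher without overlap, with a median of 10.48; none of them is named in a diet table. *KLF1*, the activator of adult globin genes, measured 8.89 to 11.04 (median 9.76) in the livers and at most 2.44 elsewhere, a log2 fold change of 10.79 ± 0.28. *GATA1* was at a like distance (10.68), as was *GFI1B* (10.28), a repressor needed for red cells and platelets. *LYL1*, which endothelium also uses, changed by 5.97.

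Downstream of these factors, the 7 globin and heme synthesis genes were all higher (7 of 7 through the diet tables, median 5.91). The alpha globin gene *HBA* ranged from 12.01 to 13.37 (median 12.53) in the livers, from 4.48 to 6.06 in muscle and from 1.54 to 7.50 in the cerebrum. It changed by 8.38 ± 0.37, and its reads may be shared with near-identical copies. The embryonic globin *HBE4* was low and uneven at 1.79 to 5.54, with no count in muscle. Heme synthesis was higher at its first and its last step, with *ALAS2*, the red cell form of the rate-limiting enzyme, at 11.23 to 12.06 (8.26 ± 0.33), then *ALAD* (5.83), *CPOX* (4.22) and *FECH* (5.43), which inserts the iron.

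Of 12 red cell membrane and surface genes 11 were higher without overlap (5 of 6 through the diet tables, median 9.27 over the list and 9.02 over those 6). The Kell antigen *KEL* had the largest change (11.16), and *RHAG*, the Rh-associated glycoprotein, changed by 9.34. *EPB41*, a membrane skeleton protein that many tissues make, changed by 1.47 ± 0.18 and overlapped with both other tissues, and did not pass with library totals (0.38). Over the livers the globin and heme list summed to 8,150 to 13,930 CPM outside mitochondrial genes and the red cell list to 3,335 to 5,357, against cerebrum medians of 122 and 96.3 and muscle medians of 212 and 109.

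Most listed genes of other blood lineages were also higher in the liver. Of 13 megakaryocyte and platelet genes 12 were higher without overlap (6 of 7 through the diet tables, median 7.61 over the list and 7.08 over those 7), led by *GP9* and *TREML1* (both 8.83). The platelet tubulin *TUBB1* measured 7.18 to 7.88 and changed by 7.61 ± 0.19. *GP1BB* alone was lower than in each other tissue, without overlap: it had no count in most livers, at most -1.56, and -0.93 to 1.87 in the cerebrum, although its partners *GP1BA* (7.90), *GP5* (5.24) and *GP9* in the same receptor were higher. Of 12 granulocyte genes 11 were tested and all 11 were higher without overlap (2 of 2 through the diet tables, median 7.43 over the list and 5.66 over those 2). The 12 had 233 counts over the cerebra and 268 over the muscles, against 20,240 over the livers. The 11 passed the filter mainly through the livers, so their direction is not independent of it. The antimicrobial peptide gene *CATHL1* measured 4.06 to 6.50 (9.71 ± 0.27), *S100A12* 4.74 to 7.24 (7.18 ± 0.21) and the myeloperoxidase gene *MPO* 1.46 to 3.75 (4.40 ± 0.26).

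Macrophage genes were higher in 10 of 11 cases (6 of 7 through the diet tables, median 6.07 over the list and 5.51 over those 7). The scavenger receptor *MARCO* measured 5.39 to 7.23 in the livers and at most -0.67 elsewhere, a change of 9.18 ± 0.22, and *SPIC*, a factor of macrophages that recycle red cell iron, changed by 7.93. Complement subunits that macrophages secrete (*C1QA*, 5.23, *C1QB*, 5.35, *C1QC*, 6.16) moved with them. *CSF1R*, the receptor that macrophages of all tissues carry, was 1.87 ± 0.15 higher against the mean and its livers, at 4.03 to 4.76, overlapped with muscle at 2.80 to 4.53. Each of the 4 lymphoid genes was higher (1 of 1 through the diet tables, median 7.24 over the list and 6.57 for that gene), at low levels. These 4 had 30 counts over the cerebra and 37 over the muscles, so they passed the filter through the livers. *CD22*, a B cell receptor partner, measured 3.93 to 5.78 and *IKZF1*, a lymphoid factor, 1.59 to 4.26.

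Stem and progenitor genes differed less. *SPN* (7.30) and *CD34* (3.36 ± 0.14) were higher than in each other tissue without overlap, and *CD34*, which endothelium also carries, measured 7.74 to 8.68 in the livers and 5.79 to 6.41 in muscle, and lost its call against each tissue with library totals. *MYB*, a factor of progenitors, was above both other tissues of its own fetus in 14 of 14 fetuses (4.23 to 5.22, change 2.00 ± 0.12) but did not exceed 2-fold over the cerebrum by the test. *HLF* was lower against the mean (-0.87 ± 0.21, adjusted *p* = 0.000364, edgeR), but not in CON fetuses alone (-0.48). Among the 4 of these genes named through the diet tables, 1 was higher by the 2-fold rule, and the median was 2.26 over the list and 2.13 over those 4. Sums over different genes are not comparable between lists. The livers' sums outside mitochondrial genes were 265 to 413 CPM for megakaryocytes, 114 to 374 for granulocytes, 373 to 688 for macrophages and 27.8 to 49.6 for lymphoid genes.

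**Figure D4:**
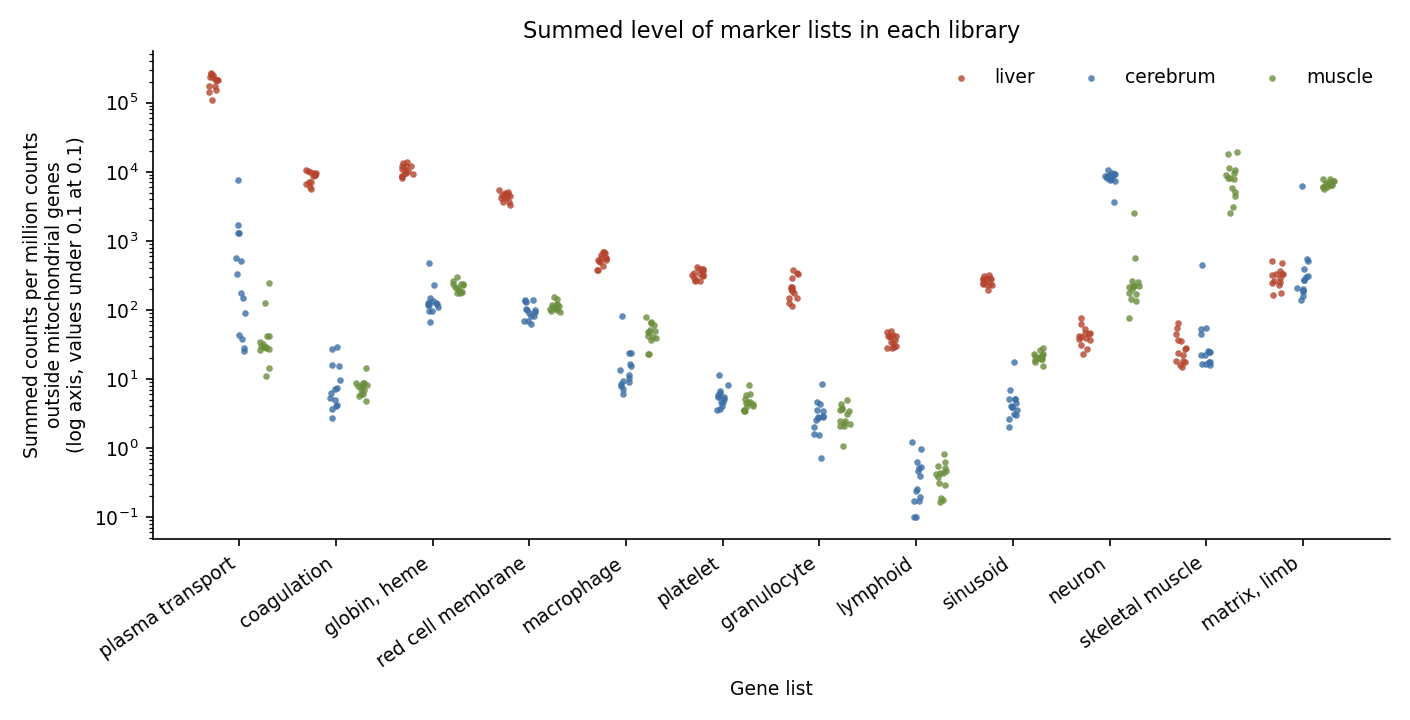
Summed CPM outside mitochondrially encoded genes of marker lists in the 14 libraries of each tissue, on a log axis, each point a library. The livers stand apart from the other tissues for plasma, red cell and other blood lists, and the cerebrum of fetus 1 and the muscle of fetus 73 stand out for the plasma and neuron lists.

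Most sinusoid genes were higher in the liver, while general endothelial genes were not by the 2-fold rule. Of 5 sinusoid genes 4 were higher without overlap (2 of 3 through the diet tables, median 5.70 over the list and 5.57 over those 3). *STAB2*, the hyaluronan scavenger receptor of sinusoids, measured 6.93 to 8.35 (median 7.36) and at most 2.76 elsewhere, a change of 7.25 ± 0.24, and the growth factor *GDF2* changed by 6.98. Clotting factor VIII (*F8*), made by endothelium, differed little (0.78 ± 0.13, and -0.31 with library totals) and lay at the muscle level, 1.57 to 3.11 against 2.06 to 2.91. None of 4 general endothelial genes, all named through the diet tables, passed the 2-fold rule. Their median was 0.44, which turned to -0.58 with library totals. *TEK*, the angiopoietin receptor, measured 4.32 to 6.04 in the livers, 4.16 to 5.63 in the cerebrum and 4.95 to 5.88 in muscle (0.10 ± 0.13, adjusted *p* = 0.475).

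Bile duct and stellate cell genes, all named through the diet tables, gave mixed values, with 1 of 3 bile duct genes higher and 1 of 3 lower by the 2-fold rule (median 1.69). *CLDN4*, an epithelial tight junction protein, measured 5.65 to 7.08 and was higher without overlap (7.19 ± 0.29). *KRT19*, a bile duct keratin, was 1.69 ± 0.25 higher against the mean but overlapped with both other tissues, and *SOX9*, a factor of bile duct precursors and of cartilage, was lower than in each other tissue (-3.93 ± 0.33). Of 5 stellate cell and mesenchyme genes none passed the 2-fold rule (median 1.27). *PDGFRB* was above both other tissues in each fetus, at 7.30 to 8.60 against 6.58 to 7.60 in muscle, with overlap between the groups. *HGF*, a growth factor for hepatocytes, was 2.79 higher against the mean on the log2 scale. Desmin (*DES*), shared with muscle, was lower against the mean (-2.30 ± 0.27).

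The growth axis showed liver-restricted and shared members. Of 9 genes 4 were higher than in each other tissue (3 of 8 through the diet tables, median 2.81 over the list and 2.33 over those 8). Of these 4, *PRLR* (2.81) lost its call without fetus 23, 54, 68, 69 or 73, in RES fetuses alone and in DESeq2. It also lost the call with library totals and without the filter on low counts. *IGFBP1*, a binding protein of insulin-like growth factors, ranged from 7.77 to 10.17 (median 8.74) and changed by 10.60 ± 0.18 (adjusted *p* = 5.09e-31, edgeR), with at most 0.85 elsewhere. *IGF2*, the main fetal growth factor, measured 12.22 to 14.16 log2 CPM in livers, 11.05 to 12.62 in muscles and 0.77 to 9.06 in cerebra, the lowest of the tissues without overlap. It was above muscle in 14 of 14 fetuses, but the groups overlapped and the difference of 0.88 did not exceed 2-fold by the test. With library totals 1 member was lower than in each other tissue. *IGFBP2* was lower than in both other tissues of its own fetus in 14 of 14 fetuses (-1.50 ± 0.13). *GHR*, the growth hormone receptor, measured 0.85 to 4.12 in the livers against 5.17 to 5.96 in muscle, and did not pass the test against the mean (-0.40 ± 0.27, adjusted *p* = 0.163).

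Iron handling was high in 4 of 5 genes (2 of 3 through the diet tables, median 6.69 over the list and 4.24 over those 3). Hepcidin (*HAMP*), the hormone that closes iron export, measured 3.79 to 7.42 (median 5.00) and changed by 9.50 ± 0.21, and its protease regulator *TMPRSS6* changed by 7.07. *FTL*, the ferritin light chain, rose from 7.33 to 7.92 in muscle to 10.32 to 12.46 in the liver (3.41 ± 0.13). *HJV*, the bone morphogenetic protein co-receptor that regulates hepcidin and that muscle also makes, was at 4.83 to 6.91 in the livers and 3.52 to 6.61 in muscle.

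The lists of general cell functions had smaller medians than those of plasma proteins. Of 8 peroxisome genes 4 were higher than in each other tissue (3 of 7 through the diet tables, median 1.72 over the list and 1.30 over those 7). Urate oxidase (*UOX*, 9.72 ± 0.23) and *HAO2* (9.77) were at or near no counts elsewhere, while *HACL1* changed by 2.14 ± 0.08. With library totals 2 of 8 were higher and 1 lower than in each other tissue, and *HACL1* (1.05) lost its call. The import factor *PEX13* was lower against the mean (adjusted *p* = 0.000799, edgeR), with 0.71 to 4.79 in the livers, 1.82 to 5.86 in the cerebrum and 3.46 to 4.33 in muscle. Of 16 secretory pathway genes 3 were higher by the 2-fold rule (3 of 16 through the diet tables), 0 of 16 with library totals, 1 of 16 in DESeq2 and 2 of 16 within either diet. The median of 1.04 fell to -0.01 with library totals. *SEC61A1*, the channel of the endoplasmic reticulum, measured 7.83 to 9.33 in the livers and up to 7.21 elsewhere (1.90 ± 0.11), and lost its call against each tissue in CON fetuses alone and with library totals. *P4HB*, a protein disulfide isomerase, was above both other tissues of its own fetus in 14 of 14 fetuses (1.70 ± 0.15).

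Cell cycle genes were higher in 5 of 9 cases (5 of 9 through the diet tables, median 1.58), and in 1 of 9 with library totals. The 4 livers of over 25% mitochondrial counts held the 4 lowest values of *CCNA2*, *CCNE2* and *PCNA* and the 4 highest of *MCM3*. *E2F1*, the factor of entry into DNA synthesis, measured 7.06 to 8.22 in the livers and at most 5.14 elsewhere (2.94 ± 0.10), and the helicase subunit *MCM2* 8.71 to 9.30 against at most 7.33 (2.43 ± 0.09, and 1.35 with library totals, where the call against each tissue was lost). Outside the list, thymidine kinase 1 (*TK1*), a gene of the smallest spread over livers, stood at 8.41 to 8.90 and at most 5.14 elsewhere (4.23 ± 0.09). *TOP2A*, used at mitosis, was slightly lower against the mean (-0.44 ± 0.19, adjusted *p* = 0.0372, edgeR), and the 3 tissues overlapped. That call was lost without fetus 1, 2, 6, 25, 33 or 52 in turn (-0.34 to -0.41) and within either diet (-0.25 in CON and -0.60 in RES), and without the 4 fetuses of over 25% mitochondrial counts in the liver, whose livers had the 4 lowest values, the change was -0.13 (adjusted *p* = 0.55, edgeR).

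All 12 mitochondrially encoded genes, each named through the diet tables, were higher than in each other tissue, with a median of 2.86, though none without overlap. *COX1*, a subunit of cytochrome oxidase, ranged from 14.49 to 20.72 (median 16.20) in the livers, from 12.72 to 15.51 in the cerebrum and from 12.49 to 13.42 in muscle, and changed by 3.56 ± 0.39. Without the 4 fetuses whose livers held over 25% mitochondrial counts, the median was 1.90 and 9 of 12 remained called, and with library totals it was 1.66 with 7 of 12.

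Among the named genes with the largest decreases, some had no count in any liver. *RBFOX1*, a splicing regulator of neurons and muscle, had no count in any liver, and with a floor of 3 counts over the group it was at least 541-fold lower than in the cerebrum and at least 336-fold lower than in muscle. *ZIC1* (at least 1,020-fold and 64.8-fold lower), a patterning factor, the neuropeptide gene *TAC1* (856-fold and 59.2-fold) and the secreted Norrin gene *NDP* (173-fold and 164-fold) were also without a count. The glutamate receptor gene *GRIA2* had 7 counts over the 14 livers, at most -0.04, with 6.69 to 8.81 in the cerebrum and 2.21 to 4.68 in muscle. *EMX2*, a homeobox gene of the cortex, had 2 counts in the livers and *SYNPR*, a synaptic vesicle gene, 5. In all, 189 of the lower genes had no count in any liver, 45 of them with a symbol, and 28 of the higher genes had none outside it.

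The neuron list was lower against the mean in 13 of 13 genes, and 8 passed the 2-fold rule against each tissue (7 of 10 through the diet tables, median -6.83 over the list and -6.93 over those 10). The vesicular glutamate carrier *SLC17A6* was at or near no counts in the livers, at 4.72 to 6.90 in the cerebrum and at -2.77 to 4.60 in muscle (-8.93 ± 0.78). *DCX*, a microtubule protein of young neurons, did not exceed -0.96 in the livers, while muscle lay at 0.94 to 3.93 (-7.02 ± 0.52). Without fetus 73, whose muscle held most neuron transcripts, 6 genes passed and the median was -5.78. Of 5 neural progenitor genes all were lower against the mean, and *HES5* alone (-7.27) against each tissue, which did not hold in RES fetuses alone. Of those named through diet results 0 of 2 passed the 2-fold rule, and the median was -4.34 over the list and -3.59 over those 2. They had 18 counts over the 14 livers together.

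Skeletal muscle genes were lower against the mean in 16 of 16 cases, 6 of them against each tissue (5 of 13 through the diet tables, median -4.95 over the list and -4.77 over those 13), since the cerebrum also held few. *MYOG*, a factor of muscle differentiation, was at most -1.34 in the livers and at 4.95 to 8.22 in muscle (-6.77 ± 0.61). Its call against each tissue was lost without fetus 1, 46 or 55, within either diet and in DESeq2. It was also lost without the 4 fetuses of over 25% mitochondrial counts in the liver. In this list the acetylcholine receptor gene *CHRNA1* had the largest change (-7.75). For embryonic myosin (*MYH3*) livers (0.94 to 4.43) and cerebra (0.30 to 6.17) overlapped, far under muscle (9.52 to 12.31). Without fetus 1, whose cerebrum carried muscle transcripts, the number lower than in each tissue was 4, and it was 3 in CON fetuses alone and in DESeq2.

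Of 9 genes of matrix, cartilage and limb mesenchyme 5 were lower than in each other tissue (3 of 7 through the diet tables, median -3.87 over the list and -1.37 over those 7), and 3 without fetus 1, whose cerebrum carried matrix transcripts. The number was also 3 without fetus 23, 25, 46 or 52, within either diet and in DESeq2. *PRRX1*, a limb mesenchyme factor, was at most -1.63 in the livers and at 4.19 to 5.76 in muscle (-7.64 ± 0.69). The cartilage proteoglycan *ACAN* (-6.58) and *TWIST1* (-5.42) were lower against the mean. Against each tissue *ACAN* lost its call on omission of any fetus but 69, and *TWIST1* on omission of fetus 1, 23, 25, 46 or 52. *SPARC* was 3.46 lower than muscle on the log2 scale but overlapped with the cerebrum.

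The HOX genes, which mark position along the body, had few counts in the liver and fewer in the cerebrum. The 17 with a symbol summed to 2,138 counts over the livers, 767 over the cerebra and 39,120 over the muscles. *HOXA11* and *HOXD11* had no count in any cerebrum. Of 16 tested, 1 (*HOXC8*) was lower than in each other tissue, which did not hold without fetus 68, within either diet or in DESeq2, and 10 were lower against the mean. Of those named through diet results 0 of 6 were lower than in each other tissue, and the median was -4.01 over the list and -1.64 over those 6. *HOXC8*, *HOXD10* and *HOXD11* had no count in any liver, and *HOXA10* was at most -1.17 against 5.76 to 6.43 in muscle. In contrast *HOXA4* (2.54 to 4.18) and *HOXA6* (2.10 to 4.37) were expressed in every liver and were higher against the mean (1.85 ± 0.35 and 1.49 ± 0.44), as was *HOXB2* (1.16), with muscle higher than the liver in *HOXA6*. With library totals *HOXA4* alone was higher against the mean, as *HOXA6* (0.62) and *HOXB2* (0.14) no longer passed. *HOXA6* also did not pass in CON fetuses alone (0.55) or without the 4 fetuses of over 25% mitochondrial counts in the liver (1.02), nor *HOXB2* in RES fetuses alone (1.21) or without the replicate block (0.81). The liver's *HOX* counts were 40.0% *HOXA6*.

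The list with the largest share of members lower than in each other tissue was the cytoskeleton of growing cell processes and its guidance receptors, with 12 of 16 lower than in each other tissue, all 12 without overlap (12 of 16 through the diet tables, median -3.88). *TUBA1A*, a tubulin of young neurons and other growing cells, measured 4.33 to 6.98 in the livers, 11.18 to 13.07 in the cerebrum and 9.22 to 10.85 in muscle (-4.88 ± 0.28). The growth cone gene *DPYSL3* (-6.19 ± 0.32) and the netrin receptor *DCC* (-6.48 ± 0.38) differed more, and both were low in the liver against either tissue. *SLIT3*, a guidance ligand, did not pass the first test (-0.38 ± 0.20, adjusted *p* = 0.0832).

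**Figure D5:**
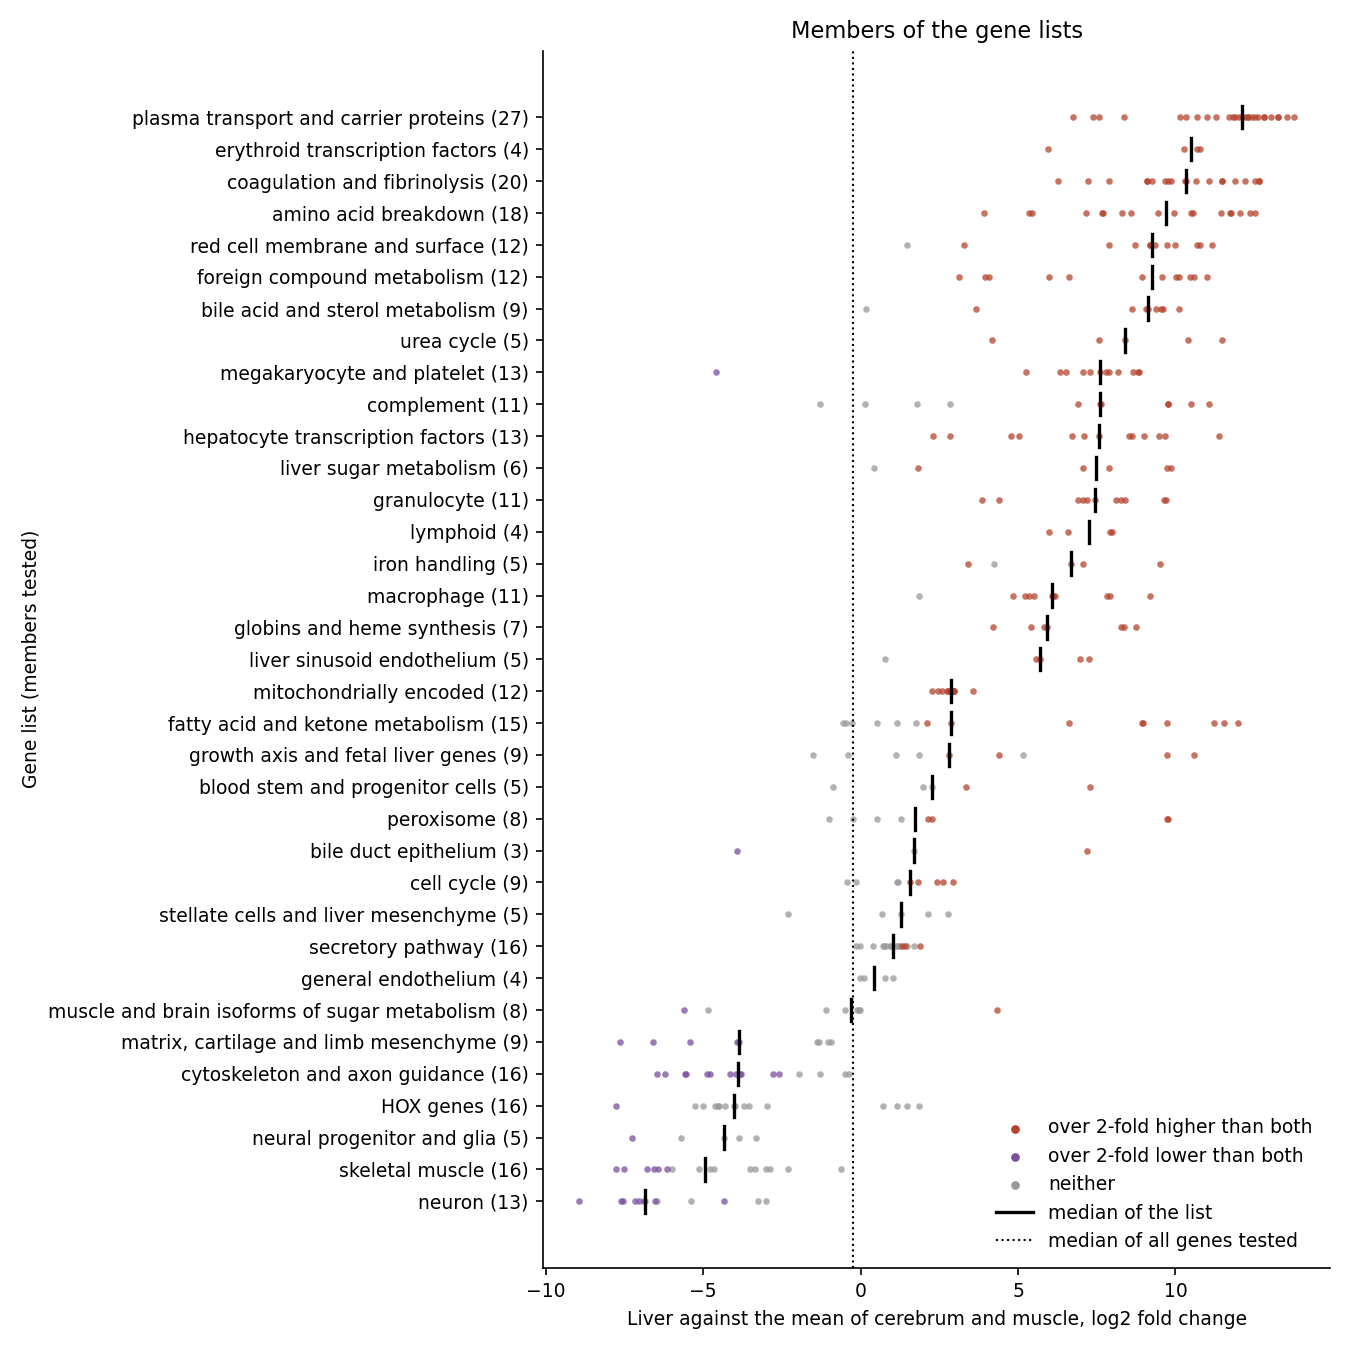
Log2 fold change of the liver against the mean of cerebrum and muscle for the tested members of each gene list, each point a gene coloured by its call, with the list's median as a bar and that of all genes as a dotted line. Medians run from 12.12 for plasma proteins to -6.83 for the neuron list, beside -0.22 over all 15,972 genes tested.

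The spread between livers differed between the lists. The median SD over the 14 livers of the 15,972 genes was 0.55 log2 CPM. The plasma list had a median SD of 0.56, the coagulation list 0.48 and the sinusoid list 0.38, against 0.80 for the cytoskeleton list, 0.92 for the skeletal muscle list, whose members had few counts in the livers, and 1.92 for the mitochondrially encoded list. The 8 named genes of largest spread were 5 mitochondrially encoded genes and the metallothioneins *MT1A* (SD 2.56), *MT1E* (2.09) and *MT2A* (1.99), which bind zinc and copper. Without the liver of fetus 54 the SDs of these metallothioneins were 0.92, 0.87 and 0.81. Without the 4 livers of over 25% mitochondrial counts the SD of *COX1* was 0.94 in place of 1.95, and that of *ND1* 0.92 in place of 1.98. *PSMF1*, a proteasome inhibitor, was the most even of those the rule picked, at 6.73 to 7.10 over the livers (SD 0.091), and it was 2.75 higher on the log2 scale than the mean of the other tissues.

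The liver contrast did not differ detectably by maternal diet. In edgeR's interaction test of the contrast with diet 0 of 15,972 genes passed (0.00%, lowest adjusted *p* = 0.558), 1,406 had an unadjusted *p* under 0.05, and DESeq2 also called 0. Within each diet the contrast was fitted again. In CON fetuses alone 5,794 genes were higher and 6,694 lower against the mean, and in RES fetuses alone 5,539 and 7,032, each with 7 fetuses. Of the 2,548 genes higher than in each other tissue over all fetuses, 2,219 were called in CON alone and 2,299 in RES alone.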

How the data were processed

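The authors prepared strand-specific libraries, mapped paired-end reads with STAR (2.7.3a in the submitters' notes, with FastQC 0.11.8 and CASAVA also listed) and deposited raw read counts per Ensembl gene from its GeneCounts option. Which strand column was kept is not given in the sources used here. All 22,664 genes and 42 columns were used, and no library duplicated another. Genes under a CPM of 1 in 80% or more of the libraries were left out. Counts were fitted with edgeR 4.0.16 (R 4.3.3, limma 3.58.1), TMM factors, tissue and animal as terms, and glmQLFTest for the liver against the mean of the other tissues. glmTreat tested a log2 fold of 1 against each tissue, and *p* was Benjamini-Hochberg adjusted over all tested genes. The animal number pairs the libraries by design, and correlations of a fetus's deviations between tissues ran from -0.240 to 0.318. DESeq2 1.42.0, other scalings, filters, thresholds and the omission of each fetus were alternatives. Summaries and permutation tests used Python 3.11.15 with scipy 1.17.1. Fits were tested on simulated data in which only a small part of the genes changed between tissues. That simulation cannot test the scaling, since most genes differed in the real libraries.

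Lists and members were chosen with earlier results of these data known. Named are the markers, the list members with the largest changes or the opposite direction, the 12 genes with symbols that changed most each way among those called against each tissue and beyond both other tissues in all 14 fetuses, the 10 with most liver counts, and the 8 with the largest and smallest spread over livers. Symbols came from the study's supplementary tables. Gene positions and sequences were not used here. Intervals of depth cover counting error only. Some list members are counted in their lists but are not reported here by name.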

Additional observations from a re-analysis of the deposited data

How the results depend on the processing

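The 48 genes named for their level, change or spread kept their direction and their call against the mean under every alternative in which they were tested. Of 340 list members called against the mean, 7 lost the call on omission of a fetus, among them *TOP2A* (without fetus 1, 2, 6, 25, 33 or 52), *GRIN1* (73), *HOXC10* (6), *HOXC11* (25), *HOXD10* (1) and *HOXD13* (69). Over all alternatives 43 lost or changed it, of which some, such as *ERP29* and *SLC37A4*, were called lower in place of higher with library totals. Of 257 called against each tissue, 9 lost the call on omission of a fetus and 30 under any alternative, and none took the opposite call. Numbers of calls depended on scaling, filter and threshold. With library totals alone the genes against the mean were 2,856 higher (46.9% of the 6,091, none outside them) and 11,188 lower, and those against each tissue 1,298 and 6,347. A stricter filter (a CPM of 1 or more in 80% or more of the libraries) tested 11,269 genes and gave 4,562 higher and 4,921 lower against the mean, 1,441 and 1,604 against each tissue. Of the called list members, this filter tested 120 of the 340 and 69 of the 257. Without a fold threshold 4,831 and 5,752 passed against each tissue, and with a log2 threshold of 2, 1,320 and 1,735. DESeq2 gave 6,112 and 7,686 against the mean and 2,267 and 2,859 against each tissue. Leaving out a fetus gave 6,041 to 6,345 higher and 7,415 to 7,592 lower against the mean, 2,497 to 2,618 and 3,295 to 3,480 against each tissue, 0 to 0 for the diet interaction and 11.4 to 15.9 percentage points for the mitochondrial share. Without the replicate block, with sex and diet in its place, the counts were 6,078 and 7,534, 2,554 and 3,411, and 0 for the diet interaction, so the pairing moved no count by over 1.5 times. Of the lists' counts 8 values moved by over 1.5 times and 972 did not on omission of a fetus, and 52 moved and 648 did not under the other settings. The cause was not tested. The number of counts limits genes of few counts. Scaled to library totals, 3 counts in a liver were worth 0.235 (fetus 1) to 0.451 CPM (fetus 69). On the TMM scale used for the levels, 3 counts stood at 0.48 log2 CPM in the liver of fetus 1.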

Other observations

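Metallothioneins set a liver apart, a pattern chosen after its values were seen. In the liver of fetus 54 *MT1A* stood at 1.11 log2 CPM (11 counts), while the next lowest liver was at 8.37, the median at 10.05 and the highest at 11.64. *MT1E* (ENSBTAG00000001595) was at 1.86 against 7.43 in the next lowest liver, *MT2A* at 2.06 against 7.76 and the second *MT1E* gene (ENSBTAG00000038706) at -1.60 against 1.61. Among 9,338 genes with a median liver level of at least 3 log2 CPM, these 4 were all of the genes in which fetus 54 lay over 2 log2 units below every other liver. They belong to a family of similar copies, so how their reads were divided is uncertain. The liver of fetus 1, with its large mitochondrial share, had 17 such genes below and 9 above, fetus 2 had 1 below and 1 above, and fetuses 23, 52 and 70 had 1 below each.

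The 4 livers with over 25% mitochondrial counts differed from the other 10 in further genes. They held the 4 highest values of *PFKFB1* (7.84 to 8.53 against at most 7.46), *KEL* (10.71 to 11.74 against at most 10.06), *IGF2* (13.55 to 14.16 against at most 13.24) and *ITIH3* (12.40 to 13.07 against at most 11.52), and the 4 lowest of *HNF4A* (4.11 to 4.97 against at least 5.16), *CPOX* (5.37 to 6.15 against at least 6.22) and *FECH* (8.57 to 9.96 against at least 10.07). Of 9,326 genes examined these 4 livers held the 4 highest values in 17.3% and the 4 lowest in 12.7%. Of the 2,045 among these that were higher in the liver than in each other tissue, they did so in 26.2% and 5.43%. For the 593 that were lower than in each other tissue, the shares were 3.20% and 19.4%. Of these 4 livers 3 were RES and 1 was CON. The part of the mitochondrial share in these values was not tested.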
